A study of Mus musculus with 14 samples.

Results

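The genes described here are 47 genes of the cell division cycle, taken by symbol from a list, out of 47729 genes in the RNA count tables. All 47 were found and all 47 passed the filter on low counts, which left 21464 genes in the test. They fell into 6 roles: 8 cyclins and kinases of the G1 phase, 3 transcription factors, 13 genes of DNA replication, 11 mitotic cyclins and kinases, 2 partners of the anaphase-promoting complex, and 10 genes of the centromere, spindle and chromosomes. The last 3 roles together are called the 23 mitotic genes.

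The cell division cycle is driven by cyclin-dependent kinases, each switched on by a cyclin. D-type cyclins with Cdk4 or Cdk6 act in G1 and release E2F factors, which drive genes of DNA replication, and later the B-type cyclins with Cdk1 bring the cell into mitosis. In skin, stem cells of the hair follicle bulge divide mainly when a new hair starts to grow, whereas basal cells of the epidermis divide throughout life.

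The study used back skin of female mice of 2 and 24 months, digested with trypsin and sorted by flow cytometry. Hair follicle stem cells (HFSC) were negative for lineage markers, high for integrin α6, positive for CD34 and negative for Sca1. Epidermal stem cells (EpdSC) were also lineage-negative and high for integrin α6, but negative for CD34 and positive for Sca1. Each population at each age gave 2 RNA-seq libraries and 1 ATAC-seq library, and lineage-negative, integrin α6-positive cells gave 1 10x single-cell library per age. The labels do not say how many animals went into a library, and they give the strain under differing names, so none is stated.

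The RNA libraries held 25126808 to 35905505 counts. Levels are given as CPM, a gene's counts relative to the library size scaled by trimmed means. The sort markers followed the labels: Cd34 stood at 1088 to 1807 CPM in the 4 HFSC libraries and at 0.340 to 1.81 in the 4 EpdSC libraries, while Ly6a, which encodes Sca1, stood at 0.400 to 1.98 and at 133 to 218. The labels do not tie the replicates to separate mice. The tests therefore weigh differences against the scatter of these libraries alone, part or all of which may be technical.

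EpdSC were first compared with HFSC at each age, to ask in which population cell cycle transcripts were more abundant. At 2 months 24 of the 47 genes were higher in EpdSC and 2 were lower (edgeR quasi-likelihood test, Benjamini-Hochberg adjusted p under 0.05). Of all 21464 genes tested, 13% were called higher and 13.1% lower. At 24 months 32 were higher and 1 was lower, against 12.2% and 11.9% of all genes. At an unadjusted p under 0.05, 35.7% of all genes differed at 2 months and 34% at 24 months. The median log2 fold change of the 47 genes was 1.11 at 2 months and 1.23 at 24 months, and that of all genes tested was -0.06 and -0.09. All 24 genes called higher at 2 months were also called higher at 24 months, and 8 more were called at 24 months. The 2 comparisons use different libraries. In these bulk samples, fewer cells of a type and less RNA per cell cannot be told apart.

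Single libraries weighed on these counts. Fewer of the 47 genes, and fewer of all genes tested, were called at 2 months without replicate 1 of the 2-month EpdSC. In that fit the 47 genes were called about as often as all genes tested. The number called at 2 months also fell, for the 47 and for all genes, without replicate 1 of the 2-month HFSC. At 24 months both numbers fell without replicate 2 of the 24-month HFSC. A fit without a library leaves that group with 1 sample, which is assumed to vary like the other groups.

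**Figure D1:**
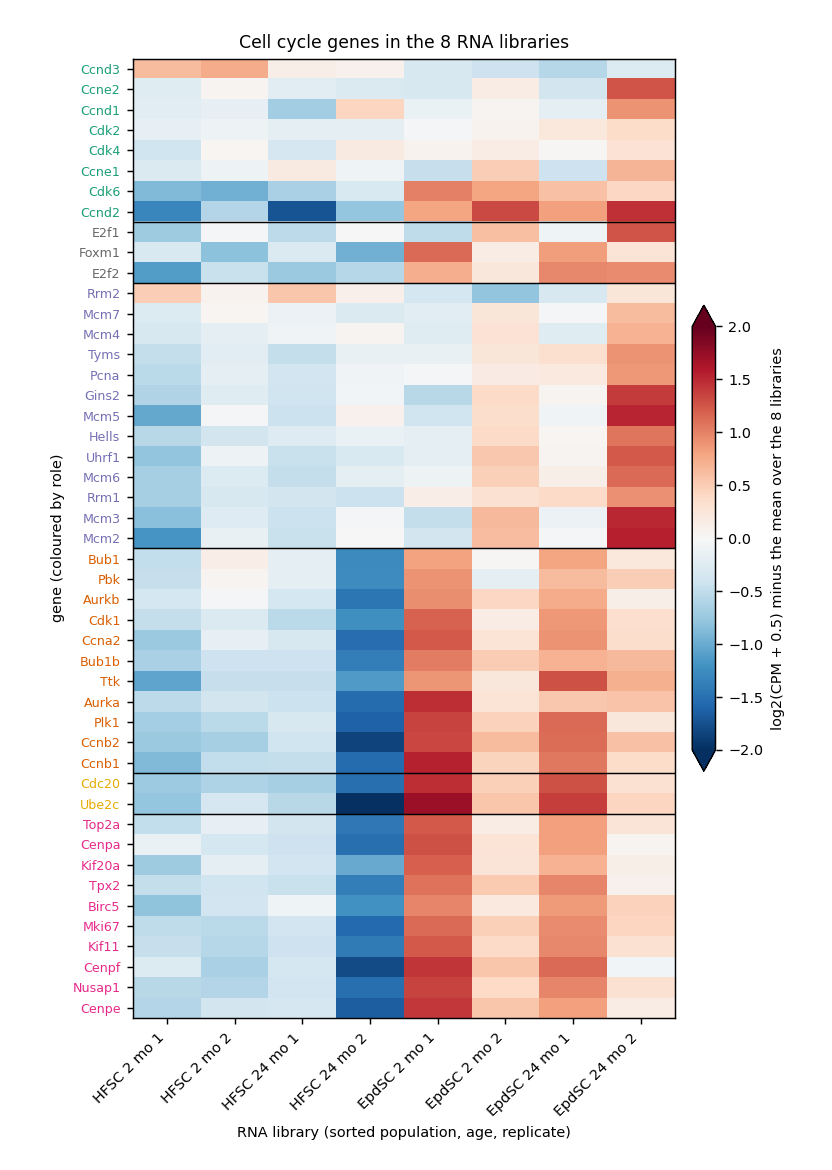
Level of each of the 47 genes (rows, coloured by role) in each of the 8 RNA libraries (columns), as log2(CPM + 0.5) minus the gene's mean over the 8 libraries. The mitotic genes in the lower rows are high in the 4 EpdSC libraries and lowest in replicate 2 of the 24-month HFSC, while the replication genes in the middle rows, apart from Rrm2, are highest in replicate 2 of the 24-month EpdSC.

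Markers of other cells also moved with the population. Of 10 suprabasal markers, which mark cells that have left the basal layer, 8 were called higher and 1 lower in EpdSC at each age. Their summed level was 366 to 836 CPM in HFSC and 3702 to 5090 CPM in EpdSC. Of 8 melanocyte markers, 5 were called lower in EpdSC at 2 months and 4 at 24 months, with summed levels of 190 to 260 CPM in HFSC and 12.3 to 20.1 CPM in EpdSC. No gene of these lists was at 0 in every library. Their part in the result was not tested.

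The G1 genes were split. Cdk6, a kinase that pairs with D-type cyclins (chr5:3341004-3531008 in GRCm38.p6), stood at 51.5 and 49.0 CPM in 2-month HFSC and 192 and 165 CPM in 2-month EpdSC. At 24 months it stood at 60.9 and 77.0 CPM in HFSC and 144 and 127 CPM in EpdSC. All 4 EpdSC libraries were above all 4 HFSC libraries. The log2 fold change was 1.83 ± 0.16 (SE) at 2 months (edgeR adjusted p = 6.24e-06) and 0.98 ± 0.16 at 24 months (edgeR adjusted p = 0.000746).

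Ccnd2, encoding cyclin D2 (chr6:127125162-127152188), had the largest log2 fold change of the 47 genes at both ages in this fit. It stood at 91.2 and 151 CPM in 2-month HFSC, 68.1 and 132 in 24-month HFSC, 392 and 564 in 2-month EpdSC, and 401 and 628 in 24-month EpdSC. Replicate 2 was the higher library in each of the 4 groups, and the populations did not overlap. EpdSC exceeded HFSC by 1.98 ± 0.34 on the log2 scale at 2 months (edgeR adjusted p = 0.00108) and by 2.36 ± 0.35 at 24 months (edgeR adjusted p = 0.000358).

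Ccnd3, encoding cyclin D3 (chr17:47505051-47599689), ran the other way. It stood at 47.9 and 51.2 CPM in 2-month HFSC, 33.3 and 32.5 in 24-month HFSC, 24.3 and 22.9 in 2-month EpdSC, and 20.4 and 25.1 in 24-month EpdSC. Every HFSC library was above every EpdSC library. The log2 fold change was -1.07 ± 0.16 at 2 months (edgeR adjusted p = 0.000415) and -0.53 ± 0.16 at 24 months (edgeR adjusted p = 0.0327). The call at 24 months was lost in each of the 8 fits that left out 1 library (edgeR adjusted p = 0.0528 to 0.338), with no filter on low counts (0.0750) and with only the libraries compared (0.0517).

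Ccnd1, encoding cyclin D1, did not pass the test at either age. It stood at 95.4 and 98.1 CPM in 2-month HFSC, 67.9 and 149 in 24-month HFSC, 99.8 and 114 in 2-month EpdSC, and 96.4 and 206 in 24-month EpdSC. Its replicates were further apart at 24 months than the population means. At 24 months it passed with no filter on low counts (log2 fold change 0.49, edgeR adjusted p = 0.0355) and without replicate 2 of 24-month HFSC (1.22, edgeR adjusted p = 0.0274). Cdk4, the other kinase partner of the D-type cyclins, stood at 85.1 and 116 CPM in 2-month HFSC, 89.5 and 128 in 24-month HFSC, 119 and 125 in 2-month EpdSC, and 115 and 138 in 24-month EpdSC. Its log2 fold changes of 0.28 ± 0.20 and 0.22 ± 0.20 did not pass. Of the remaining G1 genes, Cdk2, a kinase of the G1 to S transition, was called at 24 months only (log2 fold change 0.49 ± 0.15, edgeR adjusted p = 0.0343), and Ccne1 and Ccne2, its cyclin E partners, were called at neither age.

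Of the 3 transcription factors 2 passed at both ages. E2f2, an activator of replication genes, stood at 3.76 and 6.29 CPM in 2-month HFSC, 5.06 and 5.76 in 24-month HFSC, 14.9 and 10.3 in 2-month EpdSC, and 17.6 and 17.4 in 24-month EpdSC. Foxm1, which drives genes of G2 and mitosis, stood at 8.89 and 6.06 CPM in 2-month HFSC, 8.99 and 5.50 in 24-month HFSC, 24.9 and 12.4 in 2-month EpdSC, and 20.2 and 13.6 in 24-month EpdSC. Neither gene's populations overlapped. The log2 fold changes of E2f2 were 1.33 ± 0.29 and 1.69 ± 0.29 (edgeR adjusted p = 0.00487 and 0.00103), and those of Foxm1 were 1.32 ± 0.37 and 1.22 ± 0.37 (edgeR adjusted p = 0.01995 and 0.0305). The 24-month call of Foxm1 was lost with no composition factor (log2 fold change 1.12, edgeR adjusted p = 0.0503). It was also lost without replicate 2 of 24-month HFSC (edgeR adjusted p = 0.147) or replicate 1 of 24-month EpdSC (0.174). At 2 months Foxm1 lost its call without replicate 2 of 2-month HFSC (edgeR adjusted p = 0.106) or replicate 1 of 2-month EpdSC (0.240), and E2f2 without the latter (0.0539). E2f1 had log2 fold changes of 0.56 ± 0.56 and 1.09 ± 0.56 and passed at neither age.

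Fewer replication genes passed the test. At 2 months 1 of 13 was called higher and 1 lower, with a median log2 fold change of 0.48, and at 24 months 5 were called higher (Rrm1, Tyms, Pcna, Mcm6 and Uhrf1), with a median of 1.04. Rrm1, the large subunit of ribonucleotide reductase, stood at 52.2 and 66.3 CPM in 2-month HFSC, 64.2 and 61.4 in 24-month HFSC, 90.7 and 102 in 2-month EpdSC, and 108 and 156 in 24-month EpdSC. It passed at both ages, with log2 fold changes of 0.70 ± 0.19 and 1.08 ± 0.19 (edgeR adjusted p = 0.0167 and 0.00136). The call at 2 months was lost without replicate 1 of 2-month HFSC (edgeR adjusted p = 0.108) or replicate 2 of 2-month EpdSC (0.0775).

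Rrm2, the small subunit of the same enzyme, was called lower in EpdSC at 2 months. It stood at 21.3 and 15.7 CPM in 2-month HFSC, 22.2 and 16.1 in 24-month HFSC, 11.7 and 8.52 in 2-month EpdSC, and 11.9 and 17.9 in 24-month EpdSC. At 2 months the populations did not overlap (log2 fold change -0.87 ± 0.27, edgeR adjusted p = 0.0350), and at 24 months they did (-0.36 ± 0.27, edgeR adjusted p = 0.393). The call was lost without replicate 1 of 2-month HFSC (edgeR adjusted p = 0.229) or replicate 2 of 2-month EpdSC (0.210).

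Pcna, the sliding clamp of DNA polymerases, stood at 50.8 and 65.3 CPM in 2-month HFSC, 56.5 and 70.5 in 24-month HFSC, 72.0 and 83.2 in 2-month EpdSC, and 84.8 and 135 in 24-month EpdSC. Mcm2, a subunit of the replicative helicase, stood at 15.5 and 32.1 CPM in 2-month HFSC, 26.2 and 35.7 in 24-month HFSC, 27.5 and 55.3 in 2-month EpdSC, and 34.9 and 106 in 24-month EpdSC. Replicate 2 of the 24-month EpdSC held the highest value of both genes. Pcna passed at 24 months (log2 fold change 0.79 ± 0.22, edgeR adjusted p = 0.0218), but not without replicate 1 of 24-month HFSC (edgeR adjusted p = 0.139) or replicate 2 of 24-month EpdSC (0.225). Mcm2 overlapped between the populations at both ages and had log2 fold changes of 0.80 ± 0.48 and 1.19 ± 0.48, which did not pass. With a replicate block Mcm2 passed at both ages (0.81 and 1.00, edgeR adjusted p = 0.0229 and 0.00803), as it did with no filter on low counts (0.83 and 1.20, edgeR adjusted p = 0.000182 and 7.31e-09). At 24 months it also passed without replicate 1 of 24-month EpdSC (1.80, edgeR adjusted p = 0.00904). Of the 6 helicase subunits Mcm2 to Mcm7, Mcm6 alone was called, and at 24 months only (1.04 ± 0.30, edgeR adjusted p = 0.0237).

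Most mitotic genes passed the test at both ages. Among the 11 mitotic cyclins and kinases, 8 were called higher in EpdSC at 2 months and 10 at 24 months, with median log2 fold changes of 1.34 and 1.52. DESeq2 also called 8 at 2 months, with Aurkb (DESeq2 adjusted p = 0.0475) in place of Ccna2 (0.0945). Ccnb1, encoding cyclin B1, stood at 9.79 and 12.9 CPM in 2-month HFSC, 13.0 and 5.99 in 24-month HFSC, 54.6 and 25.2 in 2-month EpdSC, and 38.6 and 24.0 in 24-month EpdSC. Ccnb2, encoding cyclin B2, stood at 7.22 and 7.67 CPM in 2-month HFSC, 9.29 and 3.09 in 24-month HFSC, 32.1 and 19.6 in 2-month EpdSC, and 27.5 and 18.9 in 24-month EpdSC. The lowest EpdSC library was above the highest HFSC library for both cyclins. Their log2 fold changes at 2 months were 1.82 ± 0.41 and 1.80 ± 0.42 (edgeR adjusted p = 0.00638 and 0.00756), and at 24 months 1.72 ± 0.41 and 1.91 ± 0.42 (edgeR adjusted p = 0.00949 and 0.00582). Ccnb1 lost its call at 2 months without replicate 1 of 2-month EpdSC (edgeR adjusted p = 0.0518) and at 24 months without replicate 1 of 24-month EpdSC (0.0528).

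Bub1b, a kinase of the spindle checkpoint, stood at 15.2 and 17.9 CPM in 2-month HFSC, 17.9 and 8.95 in 24-month HFSC, 49.5 and 34.5 in 2-month EpdSC, and 39.2 and 37.8 in 24-month EpdSC. Ttk, another kinase of that checkpoint, stood at 4.79 and 7.43 CPM in 2-month HFSC, 7.44 and 4.51 in 24-month HFSC, 19.8 and 12.3 in 2-month EpdSC, and 26.1 and 17.3 in 24-month EpdSC. Neither overlapped between the populations. At 2 months the log2 fold changes were 1.34 ± 0.29 for Bub1b and 1.39 ± 0.34 for Ttk (edgeR adjusted p = 0.00429 and 0.0103). Ttk lost that call without replicate 1 of 2-month HFSC (edgeR adjusted p = 0.0598) or replicate 1 of 2-month EpdSC (0.0861). Bub1, also a checkpoint kinase, was called at neither age, with log2 fold changes of 0.66 ± 0.42 and 1.23 ± 0.42 (edgeR adjusted p = 0.299 and 0.0559). Aurkb and Pbk passed at 24 months only.

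Cdc20 and Ube2c, the activator and the ubiquitin-conjugating enzyme of the anaphase-promoting complex, both passed at both ages in edgeR. At 2 months Ube2c did not pass in DESeq2 (log2 fold change 1.85, adjusted p = 0.0898). Cdc20 stood at 12.0 and 12.9 CPM in 2-month HFSC, 12.5 and 6.71 in 24-month HFSC, 56.8 and 28.1 in 2-month EpdSC, and 49.1 and 24.9 in 24-month EpdSC. In both EpdSC groups replicate 1 was the higher library. The log2 fold changes of Cdc20 were 1.77 ± 0.39 and 1.94 ± 0.40 (edgeR adjusted p = 0.00562 and 0.00362), and those of Ube2c were 1.86 ± 0.57 and 2.31 ± 0.58 (edgeR adjusted p = 0.0315 and 0.0128).

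Of the 10 genes of the centromere, spindle and chromosomes, 9 were called higher at 2 months and all 10 at 24 months. The exception at 2 months was Cenpa, the histone variant of centromeres (log2 fold change 1.13 ± 0.40, edgeR adjusted p = 0.0609). Mki67, which coats mitotic chromosomes and marks cycling cells (chr7:135689784-135716450), stood at 160 and 156 CPM in 2-month HFSC, 174 and 76.8 in 24-month HFSC, 500 and 316 in 2-month EpdSC, and 437 and 307 in 24-month EpdSC. Top2a, the topoisomerase that untangles chromosomes, stood at 105 and 132 CPM in 2-month HFSC, 115 and 54.8 in 24-month HFSC, 346 and 165 in 2-month EpdSC, and 264 and 178 in 24-month EpdSC. The populations did not overlap for either gene. The log2 fold changes of Mki67 were 1.37 ± 0.33 and 1.57 ± 0.33 (edgeR adjusted p = 0.00975 and 0.00475). Cenpf did not pass in DESeq2 at either age (DESeq2 adjusted p = 0.0909 and 0.0821), while Cenpa passed there at 2 months (0.0147). Top2a passed at 2 months in edgeR (1.11 ± 0.37, adjusted p = 0.0461) and did not in DESeq2 (1.10, adjusted p = 0.126). Its 2-month call was also lost in edgeR with no composition factor (edgeR adjusted p = 0.0707) and with at least 1 CPM in 2 libraries (0.0592). At 24 months Top2a passed in both tools (1.38 ± 0.37, edgeR adjusted p = 0.0181). Top2a lost its 2-month call without replicate 1 or 2 of 2-month HFSC (edgeR adjusted p = 0.150 and 0.0559) or replicate 1 of 2-month EpdSC (0.439). Its 24-month call was lost without replicate 2 of 24-month HFSC (edgeR adjusted p = 0.0805) or replicate 1 of 24-month EpdSC (0.0845), and the 2-month call of Mki67 without replicate 1 of 2-month EpdSC (0.0505).

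Nusap1, a protein that bundles spindle microtubules, stood at 19.9 and 19.3 CPM in 2-month HFSC, 22.3 and 10.0 in 24-month HFSC, 75.3 and 38.9 in 2-month EpdSC, and 58.2 and 36.5 in 24-month EpdSC. Kif11, the motor that pushes spindle poles apart, stood at 25.7 and 23.9 CPM in 2-month HFSC, 26.5 and 13.1 in 24-month HFSC, 83.7 and 46.7 in 2-month EpdSC, and 69.6 and 44.2 in 24-month EpdSC. The replicates of HFSC at 2 months lay close together for both genes, while replicate 1 was the higher library in the other 3 groups. At 2 months the log2 fold changes were 1.54 ± 0.38 and 1.40 ± 0.34 (edgeR adjusted p = 0.00987 and 0.0103). Both calls were lost without replicate 1 of 2-month EpdSC (edgeR adjusted p = 0.0773 and 0.0788), and the 24-month call of Nusap1 without replicate 1 of 24-month EpdSC (0.0590).

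**Figure D2:**
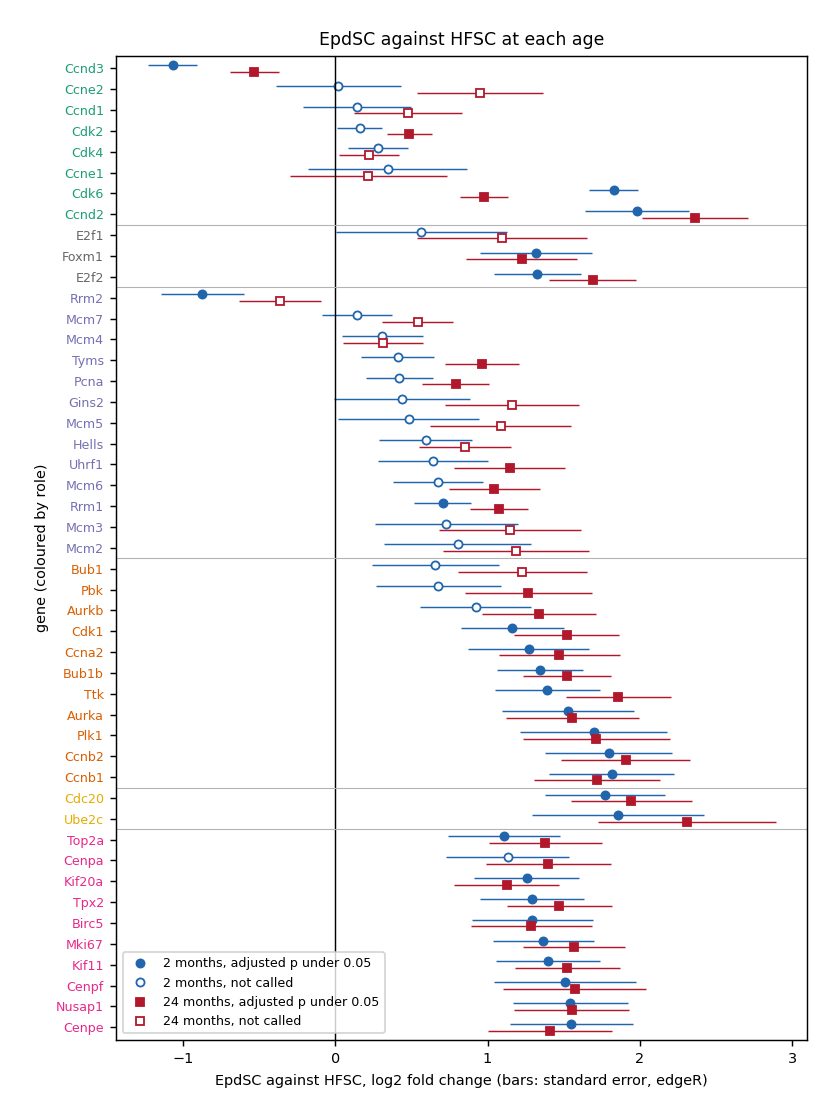
Log2 fold change of EpdSC against HFSC for each of the 47 genes (rows, coloured by role) at 2 months (circles) and 24 months (squares), with edgeR standard errors; filled symbols passed an adjusted p under 0.05. Ccnd3 and Rrm2 are the 2 genes left of 0, and the mitotic genes lie between 0.66 and 2.31.

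The libraries can also be compared without a model, by whether the groups overlap. At 2 months both EpdSC libraries were above both HFSC libraries for 33 of the 47 genes and below them for 2, against 29.8% and 32.6% of all genes tested. At 24 months the counts were 36 and 1, against 28.8% and 33.8%.

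Other cycle genes outside the 47 were counted in 7 further lists of 125 genes. Of 33 genes of the spindle, kinetochore and cytokinesis, 20 were called higher in EpdSC at 2 months and 24 at 24 months, none lower, with median log2 fold changes of 1.34 and 1.47. The leading ones were Anln, a scaffold of the cleavage furrow (2.06 ± 0.32 at 2 months, edgeR adjusted p = 0.000514), Ect2, which starts the furrow (1.85 ± 0.30, edgeR adjusted p = 0.000674), and Cks2, a subunit of cyclin-dependent kinases (1.61 ± 0.28, edgeR adjusted p = 0.00105). Of 13 genes of cohesin and condensin 6 were called higher at each age, led by Ncaph2 of condensin II (0.95 ± 0.13 at 2 months, edgeR adjusted p = 0.000235). Of 14 chromatin and tubulin genes of cycling cells 6 and 7 were called higher, led by Tubb4b (1.54 ± 0.20 at 2 months, edgeR adjusted p = 0.000149).

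Lists of the G1 to S side are read against the same shares of all genes, 13% higher and 13.1% lower at 2 months and 12.2% and 11.9% at 24 months. Of 25 genes of DNA synthesis and chromatin assembly 3 were called higher and 1 lower at 2 months, and 8 higher at 24 months. Of 16 genes of origin licensing and firing 3 were higher and 1 lower at 2 months, and 4 higher and 1 lower at 24 months, with Dbf4, the activator of the Cdc7 kinase, higher at both ages (1.26 ± 0.23 and 1.43 ± 0.24, edgeR adjusted p = 0.00174 and 0.000827). Of 14 E2F, DP and MuvB factors 2 were called higher at 2 months, and 5 higher and 1 lower at 24 months. E2f7, a repressor among the E2F factors, was higher at both ages (1.46 ± 0.42 and 2.13 ± 0.43, edgeR adjusted p = 0.0230 and 0.00323). Its 2-month call was lost without replicate 2 of 2-month HFSC (edgeR adjusted p = 0.113) or without replicate 1 or 2 of 2-month EpdSC (0.0534 and 0.0587).

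Inhibitors of cyclin-dependent kinases moved both ways. Cdkn1a, which encodes p21, stood at 9.39 and 5.35 CPM in 2-month HFSC, 7.71 and 9.78 in 24-month HFSC, 44.7 and 42.2 in 2-month EpdSC, and 55.9 and 46.0 in 24-month EpdSC. It was higher in EpdSC at both ages, with log2 fold changes of 2.55 ± 0.25 and 2.54 ± 0.25 (edgeR adjusted p = 1.54e-05 and 1.76e-05). Cdkn1c, which encodes p57, was lower at both ages (-2.41 ± 0.53 and -3.21 ± 0.53, edgeR adjusted p = 0.00533 and 0.000859). Cdkn1b, which encodes p27, was lower at 2 months (-0.87 ± 0.16, edgeR adjusted p = 0.00146) and had a log2 fold change of -0.38 ± 0.16 at 24 months, which did not pass.

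Age was compared within each population next, to ask whether cell cycle transcripts changed between 2 and 24 months. In HFSC none of the 47 genes was called by edgeR or by DESeq2, against 0.368% of all genes called by edgeR (0.294% higher and 0.0745% lower), and 2 had an unadjusted p under 0.05, against 7.68% of all genes. These were Ccnd3 (log2 fold change -0.59 ± 0.16, edgeR adjusted p = 0.202) and Cdk6 (0.46 ± 0.16, edgeR adjusted p = 0.393). The values given above show that the libraries of both ages did not overlap for either gene. The 10 suprabasal markers summed to 366 and 554 CPM in 2-month HFSC and to 613 and 836 CPM in 24-month HFSC. None of them was called by edgeR, 8 had an unadjusted p under 0.05, and DESeq2 called 3 higher. The 10 sebaceous gland markers summed to 334 and 407 CPM at 2 months and 582 and 777 at 24 months, all 10 were higher, and 1 was called by edgeR and 4 by DESeq2. The 10 upper hair follicle markers summed to 1055 and 1307 CPM and to 1350 and 2125, and all 10 were higher, none called by edgeR and 1 by DESeq2. The part of these markers in the result was not tested. In EpdSC none was called by either tool, against 0.0839% of all genes called by edgeR (0.0559% higher and 0.028% lower), and 4 had an unadjusted p under 0.05, against 4.46%. These were Cdk6 (-0.39 ± 0.16), Tyms (0.59 ± 0.24), Rrm1 (0.45 ± 0.19) and Pcna (0.50 ± 0.22), each with an edgeR adjusted p of 1.00.

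By role, the signs of the age differences were uneven though none passed. In HFSC the 13 replication genes had a median log2 fold change of 0.13, with 12 above 0, and the 11 mitotic cyclins and kinases had a median of -0.38, with none above 0. In EpdSC all 13 replication genes were above 0, with a median of 0.54, and 3 of the 11 mitotic cyclins and kinases were, with a median of -0.16. Of all genes tested 51.9% were above 0 in HFSC and 50% in EpdSC. The replicates behind these medians were far apart. The mitotic genes of 24-month HFSC summed to 583 CPM in replicate 1, above both 2-month libraries, and to 264 in replicate 2. The replication genes of 24-month EpdSC summed to 584 CPM in replicate 1, between both 2-month libraries, and to 1146 in replicate 2. The difference between the age effects of both populations called none of the 47 genes in edgeR or DESeq2, against 0.00466% of all genes called by edgeR and 0.438% called by DESeq2. At an unadjusted p under 0.05 this difference gave 2 genes, Cdk6 and Ccnd3, against 4.57% of all genes.

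In 3 of the 4 groups the replicates differed in opposite directions for mitotic and replication genes. The 23 mitotic genes summed to 528 and 579 CPM in 2-month HFSC, 583 and 264 in 24-month HFSC, 1802 and 999 in 2-month EpdSC, and 1471 and 963 in 24-month EpdSC. Replicate 2 was the lower library in 3 of the 4 groups, all but the 2-month HFSC. The 13 replication genes summed to 368 and 483 CPM, 442 and 498, 494 and 704, and 584 and 1146 in the same order. Here replicate 2 was the higher library in all 4 groups.

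Gene by gene the split was nearly complete in every group but the 2-month HFSC. In 24-month HFSC all 23 mitotic genes were lower in replicate 2, with a median log2 ratio of replicate 2 to replicate 1 of -1.09, while 10 of 13 replication genes were higher (median 0.29). In 2-month EpdSC all 23 mitotic genes were lower (median -0.88) and 12 of 13 replication genes higher (median 0.58). In 24-month EpdSC 22 of 23 mitotic genes were lower (median -0.59) and all 13 replication genes higher (median 1.01). In 2-month HFSC, 18 of 23 mitotic genes and 12 of 13 replication genes were higher in replicate 2 (medians 0.21 and 0.36). Of all genes tested 49.6%, 47.8%, 48.5% and 47.7% were higher in replicate 2 of 2-month HFSC, 24-month HFSC, 2-month EpdSC and 24-month EpdSC.

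**Figure D3:**
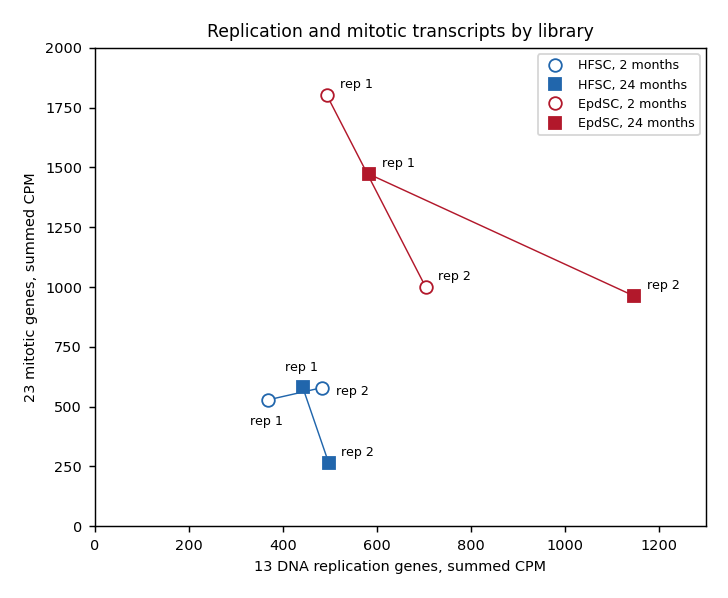
Summed CPM of the 13 replication genes (horizontal) and of the 23 mitotic genes (vertical) in each of the 8 RNA libraries, with a line joining the 2 replicates of a group. The EpdSC libraries lie at 963 to 1802 CPM of mitotic transcripts and the HFSC libraries at 264 to 583, and replicate 2 lies to the right of replicate 1 in every group.

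The lists outside the 47 genes showed part of this split. Of 33 genes of the spindle, kinetochore and cytokinesis, 21 were higher in replicate 2 in 2-month HFSC, 5 in 24-month HFSC, none in 2-month EpdSC and 3 in 24-month EpdSC. Of 25 genes of DNA synthesis and chromatin assembly 20, 11, 15 and 25 were higher in the same order. In 24-month HFSC and 2-month EpdSC their medians were -0.01 and 0.11, beside 0.29 and 0.58 for the 13 replication genes. What set the replicates apart was not tested.

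Promoter sequence was read for the genes with an entry in the RefSeq promoter table of GRCm38.p6, which held 36 of the 47. The search covered the 250 bases before the transcription start on both strands. The letters TTTGAA are known as the cell cycle genes homology region (CHR). A second search looked for CCAAT, where the factor NF-Y is known to bind. For the E2F site 4 forms were searched: the form TTCCCGC was the first, the form TTGGCGC another, and the form TTCGCGC was searched along with the form TTGCCGC. On the other strand TTGGCGC ends in CCAA, so an E2F match can overlap a CCAAT match. CHR and CCAAT elements are known from genes of G2 and mitosis, and E2F sites from genes of replication.

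CHR letters were present in 7 of 18 mitotic promoters (38.9%), 1 of 11 replication promoters (9.09%) and 15.99% of 32851 promoters in the table. CCAAT was present in 16 of 18 mitotic promoters (88.9%), 9 of 11 replication promoters (81.8%) and 33.9% of all. E2F letters were present in 7 of 11 replication promoters (63.6%), 3 of 18 mitotic promoters (16.7%) and 7.89% of all. Among promoters of genes tested in the RNA libraries the shares were 11.5% for CHR, 34.2% for CCAAT and 12.1% for E2F. Each mitotic or replication gene was read at a single start, the listed one with the highest summed ATAC-seq level. That start can lie inside the gene, as for Hells (chr19:38930990, + strand, gene from 38930262) and Mcm7 (chr5:138171266, - strand, gene up to 138172111). The shares over all promoters and over genes tested kept every listed start of a gene, open or closed. The shares are therefore not like for like. A match is a description of the letters and not a bound site.

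The mitotic promoters that hold both CHR and CCAAT with the most matches are shown, as examples of genes that edgeR called higher in EpdSC at both ages. Capitals mark TTTGAA and CCAAT on either strand.
Top2a, chr11:99024190-99024439, - strand: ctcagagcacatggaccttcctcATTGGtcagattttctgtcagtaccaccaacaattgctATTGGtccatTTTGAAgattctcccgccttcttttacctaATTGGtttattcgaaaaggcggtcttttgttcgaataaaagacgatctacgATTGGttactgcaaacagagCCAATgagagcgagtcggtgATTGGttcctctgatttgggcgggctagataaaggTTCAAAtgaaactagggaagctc
Ube2c, chr2:164769679-164769928, + strand: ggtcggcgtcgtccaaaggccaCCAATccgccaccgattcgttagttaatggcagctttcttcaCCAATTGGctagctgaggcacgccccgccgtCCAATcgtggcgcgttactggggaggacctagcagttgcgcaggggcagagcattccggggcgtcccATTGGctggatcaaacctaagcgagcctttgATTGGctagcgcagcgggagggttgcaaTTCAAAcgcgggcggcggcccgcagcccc
Cdk1, chr10:69352913-69353162, - strand: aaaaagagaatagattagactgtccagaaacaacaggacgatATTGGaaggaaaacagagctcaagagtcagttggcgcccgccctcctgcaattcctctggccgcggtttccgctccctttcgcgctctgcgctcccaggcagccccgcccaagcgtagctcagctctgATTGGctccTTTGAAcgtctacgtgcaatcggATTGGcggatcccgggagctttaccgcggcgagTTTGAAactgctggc
Mki67, chr7:135716380-135716629, - strand: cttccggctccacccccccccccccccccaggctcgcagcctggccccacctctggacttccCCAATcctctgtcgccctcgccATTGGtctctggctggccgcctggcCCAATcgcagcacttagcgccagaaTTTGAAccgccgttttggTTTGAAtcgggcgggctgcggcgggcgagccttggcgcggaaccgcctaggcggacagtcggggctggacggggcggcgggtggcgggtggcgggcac

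The replication promoters with the most E2F matches follow, for contrast. Mcm6 was called at 24 months only, and Mcm5 and Hells, a chromatin remodeller, were called at neither age. The stretch printed for Hells lies inside the gene, which begins at 38930262. Capitals mark the E2F forms on either strand.
Mcm6, chr1:128359706-128359955, - strand: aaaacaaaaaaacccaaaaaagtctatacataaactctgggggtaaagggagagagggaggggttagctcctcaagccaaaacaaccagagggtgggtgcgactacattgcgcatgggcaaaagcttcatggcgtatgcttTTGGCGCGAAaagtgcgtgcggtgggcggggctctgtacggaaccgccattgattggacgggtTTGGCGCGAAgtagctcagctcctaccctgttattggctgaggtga
Mcm5, chr8:75109259-75109508, + strand: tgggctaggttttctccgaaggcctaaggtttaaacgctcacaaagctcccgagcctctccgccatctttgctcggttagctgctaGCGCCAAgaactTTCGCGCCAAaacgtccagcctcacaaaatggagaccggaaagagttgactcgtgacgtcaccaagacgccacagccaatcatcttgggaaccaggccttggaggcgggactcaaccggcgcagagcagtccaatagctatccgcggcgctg
Hells, chr19:38930740-38930989, + strand: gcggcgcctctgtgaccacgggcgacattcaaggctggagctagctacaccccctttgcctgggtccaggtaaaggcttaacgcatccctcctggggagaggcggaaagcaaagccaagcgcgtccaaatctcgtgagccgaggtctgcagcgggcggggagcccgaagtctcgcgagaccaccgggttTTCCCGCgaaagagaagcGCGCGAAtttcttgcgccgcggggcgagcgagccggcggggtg

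In Top2a the CHR letters nearest to the start lay 23 to 18 bases before it, in Ube2c 29 to 24, and in Cdk1 15 to 10. Each was preceded by a CCAAT match, at 58 to 54 bases before the start in Top2a, 57 to 53 in Ube2c and 48 to 44 in Cdk1. In Mki67 the CHR letters lay further out, at 98 to 93 bases. Mcm6 held 4 E2F matches in 2 pairs, at 109 to 100 and at 46 to 37 bases, each pair made of TTGGCGC and GCGCGAA sharing 4 letters.

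Accessibility of these promoters was read from ATAC-seq, in which a transposase cuts open chromatin. Counts in 500-base windows within 1000 bases of the start were summed for the 36 genes. For a gene with several listed starts, the one with the highest summed level over the 4 libraries was used. With 1 library per group there is no replicate check and no test, and intervals are 95% counting intervals that cover counting error only. Library totals were 26170665 counts in 2-month HFSC, 8243922 in 24-month HFSC, 37325365 in 2-month EpdSC and 22934060 in 24-month EpdSC. The 36 promoters had a median of 12.4, 7.10, 13.6 and 14.9 CPM in that order, beside medians over all promoters of 1.337, 1.334, 1.5003 and 1.526 CPM. The lowest of the 36 stood at 3.17, 2.06, 6.08 and 7.06 CPM. No limit was set for calling a promoter open.

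Ratios were taken over promoters with at least 20 counts over the pair, called all promoters in these comparisons (23373 at 2 months, 17510 at 24 months). At 2 months the median log2 ratio of EpdSC over HFSC was 0.09 for the 36 promoters and 0.05 for all promoters. One of the 36, Tyms, encoding thymidylate synthase, was 2-fold or more higher and none was that much lower, against 10.7% and 7.74% of all promoters. Tyms held 86 counts in HFSC and 273 in EpdSC (log2 ratio 1.15, interval 0.80 to 1.52). Plk1, a kinase of mitotic entry, held 169 and 481 (0.99, 0.74 to 1.26), Bub1 held 83 and 227 (0.93, 0.57 to 1.32) and Ccnb2 held 108 and 273 (0.82, 0.50 to 1.16). E2f2, whose transcript was higher in EpdSC, had the lowest ratio, with 740 counts in HFSC and 673 in EpdSC (-0.65, -0.80 to -0.50). The start used for E2f2, chr4:136180782, lay inside the gene, which begins at 136172274. Its ratio therefore does not cover the region where the gene begins.

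The promoters with the most counts included Kif11 (870 and 1271 counts), Pcna (958 and 993), Rrm2 (826 and 927), Mcm5 (778 and 850) and Aurka, a spindle kinase (520 and 740). Kif11 and Aurka had log2 ratios near 0 at the same time as transcript differences of 1.40 and 1.53. The ratio of Pcna was -0.46 (-0.59 to -0.33). So promoter ratios were spread around those of all promoters, while most transcripts of these genes were higher in EpdSC.

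At 24 months the comparison set a deeper library against the shallowest one, 22934060 against 8243922 counts. The median log2 ratio of EpdSC over HFSC was 1.04 for the 36 promoters and 0.88 for all promoters, and 19 of 36 were 2-fold or more higher, against 41.6% of all promoters, while none was that much lower, against 7.05%. The highest ratios were those of Cdk6, with 50 counts in HFSC and 639 in EpdSC (2.19, 1.78 to 2.65), Tyms, with 17 and 215 (2.15, 1.47 to 2.99), Plk1 (1.72, 1.23 to 2.27) and Uhrf1, which reads methylation marks at replication forks (1.60, 1.20 to 2.06). The start used for Cdk6, chr5:3343893, lay inside the gene, which begins at 3341004.

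Aged against young HFSC gave a median log2 ratio of -0.76 for the 36 promoters and -0.64 for all, with 11 of 36 at 2-fold or more lower, against 21.1% of all promoters, and none that much higher, against 5.51%. The library of aged HFSC held the fewest counts, and its part in the result was not tested. Kif11 had the lowest ratio, with 870 counts at 2 months and 70 at 24 months (-1.96, -2.34 to -1.62). Aged against young EpdSC gave 0.13 for the 36 promoters and 0.07 for all, and none of the 36 reached 2-fold in either direction, against 2.3% of all promoters higher and 3.99% lower. Kif11 again had the lowest ratio, with 1271 counts at 2 months and 494 at 24 months (-0.66, -0.81 to -0.51).

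**Figure D4:**
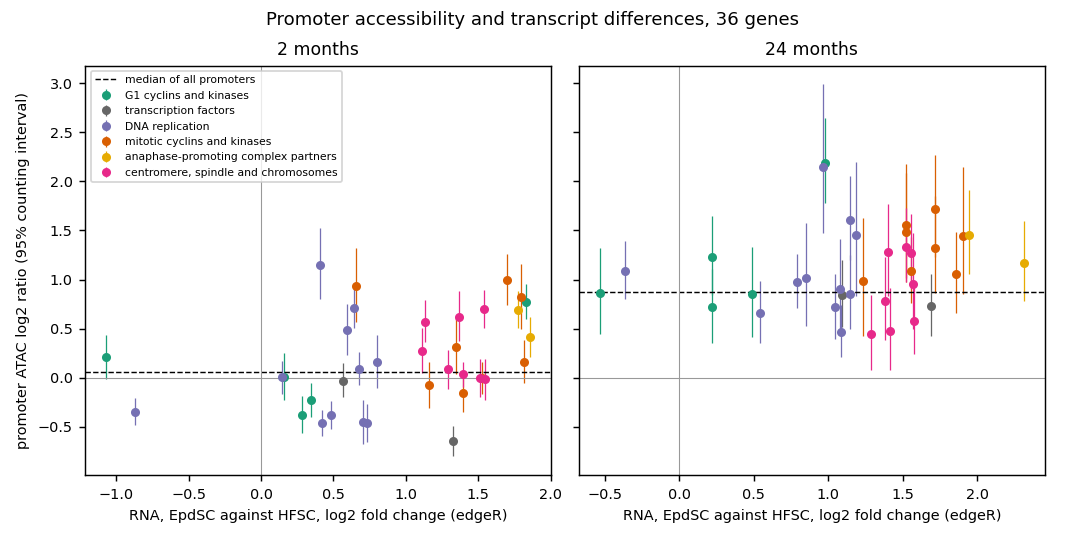
Promoter ATAC log2 ratio of EpdSC over HFSC (vertical, bars are 95% counting intervals, 1 library per group) against the RNA log2 fold change (horizontal) for the 36 genes with a promoter, at 2 months (left) and 24 months (right), coloured by role. The dashed line is the median of all promoters with at least 20 counts over the pair, 0.05 at 2 months and 0.88 at 24 months, and the points lie on both sides of it at both ages.

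Single cells showed which cells held these transcripts. The 10x libraries gave 4038 cells at 2 months (median 3923 unique molecular identifiers, UMIs) and 4469 cells at 24 months (median 2271 UMIs), and 33 cell barcodes occurred in both libraries. Cells were grouped into 12 clusters without 172 cycle genes, including all 47, and no doublet caller was run. Cluster 11 was still led by genes of dividing cells, such as Ube2c, Cenpf and Top2a. Outside the 172 cycle genes, its leading genes included Cdca3, Cdkn3, Ube2s and histone genes. These were not left out, so the clustering may not have been free of genes of dividing cells. No cell type name was given to cluster 11. Cluster 11 was picked as the cluster with the highest summed level of the 23 mitotic genes. A high share of their UMIs in it therefore follows in part from that choice.

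Cluster 11 held 246 of the 2-month cells (6.09%) and 265 of the 24-month cells (5.93%). It contained 6.01% of all cells, 8.29% of all UMIs and 85.7% of the UMIs of the 23 mitotic genes. It contained 20.4% of the UMIs of the replication genes and 4.57% of those of the G1 genes. The level of the 23 mitotic genes was 7262 CPM, here UMIs relative to all UMIs, inside it and 109 CPM outside.

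Within roles the genes differed. Foxm1 had 88.3% of its UMIs in cluster 11 (interval 80.0 to 94.0), and E2f1 and E2f2 had 16.4% (11.6 to 22.3) and 28.4% (20.2 to 37.9). Among replication genes Rrm2 and Uhrf1 were the most concentrated, with 42.8% (38.4 to 47.3) and 38.2% (33.1 to 43.5). Mcm6 and Gins2, a subunit of the helicase complex, had 8.29% (6.62 to 10.2) and 8.72% (6.86 to 10.9), close to the share of all UMIs. Ccnd1 and Ccnd2 lay below it, with 2.89% (2.19 to 3.72) and 2.95% (2.69 to 3.24).

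Of the 23 mitotic genes 22 had more than 77% of their UMIs in cluster 11, up to 90.8% for Cenpf, a kinetochore protein. Ttk was the exception with 52.0% (44.9 to 59.0). Mki67 had 77.3% (74.0 to 80.3). Ccnd2 was highest in the cluster led by Fos and Jun, at 947 CPM, and in the interfollicular basal-like cluster, at 897. In the bulge-like cluster it stood at 274 CPM, and in the suprabasal-like cluster at 108. Ccnd3 stood at 50.8 CPM in the bulge-like cluster and 31.1 in the interfollicular basal-like cluster. These names rest on marker genes in clusters built here.

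**Figure D5:**
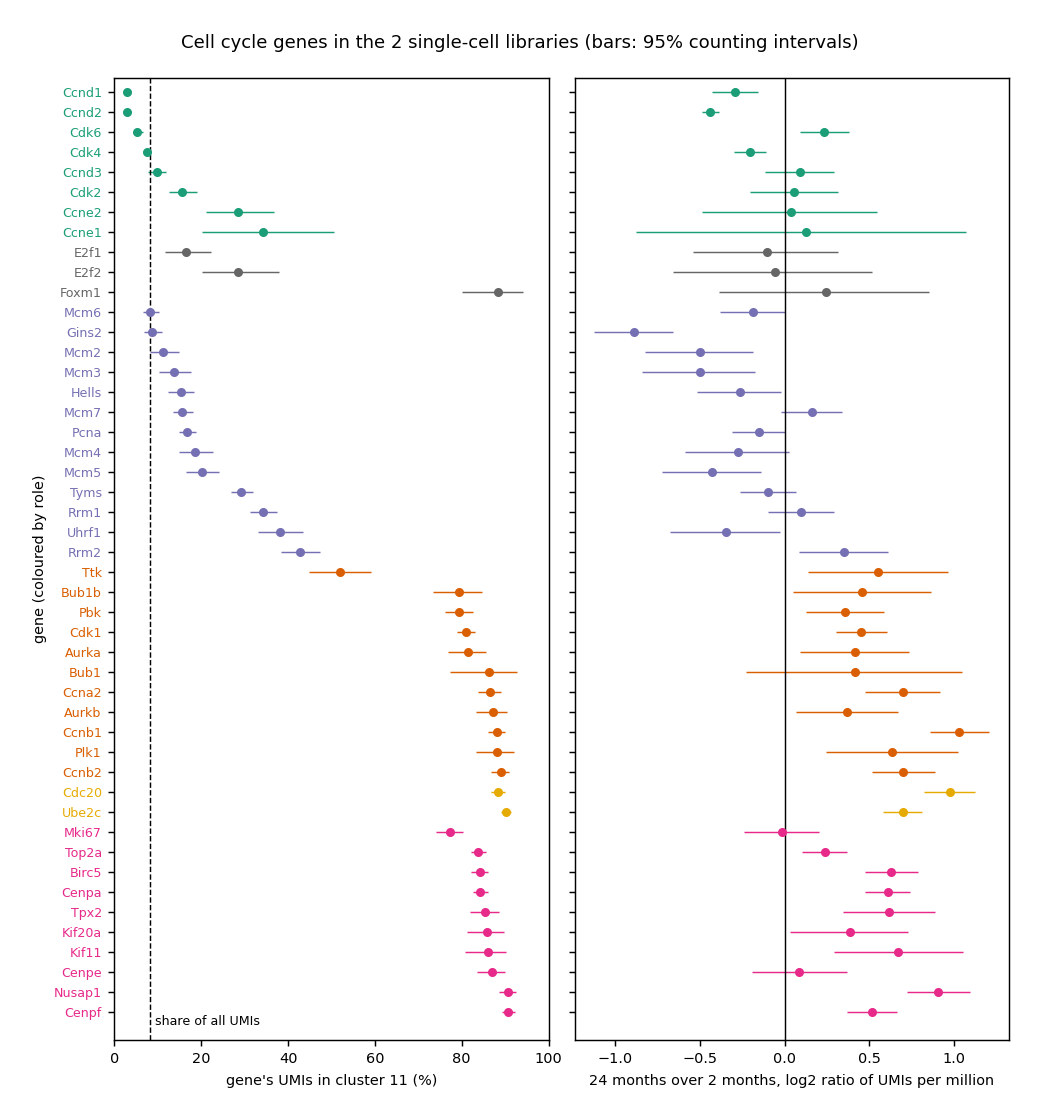
Left, the share of each gene's UMIs found in cluster 11, with the share of all UMIs (8.29%) as a dashed line; right, the log2 ratio of CPM at 24 over 2 months, with 95% counting intervals and 1 library per age. The mitotic genes lie at 52.0% or above on the left and, with Mki67 the only ratio below 0 among them, mostly right of 0 on the right. Cluster 11 was picked by the summed level of the mitotic genes.

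Between the 2 single-cell libraries no test was possible. The 23 mitotic genes stood at 586 CPM at 2 months (exact Poisson interval 575 to 598) and 879 at 24 months (861 to 896). Replication genes stood at 350 (341 to 359) and 309 (299 to 319), and G1 genes at 920 (906 to 934) and 744 (728 to 760). The 47 genes together stood at 1870 and 1946 CPM, a ratio of 1.04. Barcodes with 5 to 50 UMIs, which mostly hold free RNA, gave 611 and 950 CPM for the mitotic genes.

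The genes with the most UMIs were Ccnd2, which fell from 591 to 436 CPM between the libraries (log2 ratio -0.44), Cdk4 (147 and 128, -0.20), Ube2c (67.8 and 110, 0.70), Ccnd1 (75.5 and 61.7, -0.29), Top2a (62.7 and 73.9, 0.24) and Cenpa (53.2 and 81.0, 0.61). The widest ratios belonged to Ccnb1 (27.8 and 56.7 CPM, 1.03), Cdc20 (38.0 and 74.5, 0.97), Nusap1 (25.4 and 47.6, 0.91) and Gins2 (34.8 and 18.8, -0.89). Mki67 stood at 25.2 and 24.97 CPM. So within the mitotic genes the ratio differed from gene to gene.

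Depth changed the answer for the share of cells. After thinning each cell to 1500 UMIs, which left out 105 cells at 2 months and 800 at 24 months, 214 of 3933 cells at 2 months had 2 or more UMIs of the mitotic genes (5.44%, exact binomial interval 4.75 to 6.20). At 24 months 285 of 3669 had (7.77%, 6.92 to 8.68). Without thinning the shares were 9.39% and 8.12%, in the other order. In the suprabasal-like cluster, a type known to have left the cycle, thinned shares were 1 of 469 cells (0.213%) and 2 of 647 (0.309%), at median depths of 5492.5 and 3128 UMIs. For 2 or more UMIs of the replication genes the thinned shares were 8.44% (7.59 to 9.35) and 7.96% (7.10 to 8.88).

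Inside cluster 11 the thinned share with 2 or more mitotic UMIs was 164 of 242 cells at 2 months (67.8%) and 241 of 257 at 24 months (93.8%). The level of the mitotic genes in it was 6567 CPM at 2 months and 8094 at 24 months. Its cells had median depths of 4361.5 and 3984 UMIs.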

How the data were processed

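RNA-seq, ATAC-seq and 10x data of sorted mouse skin cells were used. The authors deposited whole-number read counts per gene for RNA-seq, counts per 500-base window for ATAC-seq and counts of unique molecular identifiers per gene and barcode for 10x. STAR, Bowtie and Cell Ranger were used with the build mm10, per the submitters' processing notes; versions, strand setting and annotation were not given in the sources used here, and reads of overlapping, antisense and near-identical genes may be mixed. The 47 genes, their roles, the further lists and the rule for named genes were chosen with earlier results of these data known.

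RNA counts were fitted with edgeR 4.0.16 in R 4.3.3 over all 8 libraries, with trimmed-mean scaling, filterByExpr, a term per group and the quasi-likelihood test; the spread was shared (common biological coefficient of variation 0.277). Calls used Benjamini-Hochberg adjustment over 21464 genes and a limit of 0.05. DESeq2 1.42.0, other scalings and filters, a replicate term and fits without each library were alternatives, and the fit was tested on simulated data. Each standard error is the size of the log2 fold change divided by the root of its F statistic. Every one of the 47 genes could be named. Library values were given for the 12 with the smallest p at 2 months in EpdSC against HFSC, for up to 8 called in another comparison and for Ccnd1, Ccnd2, Ccnd3, Cdk4, Cdk6, Mki67, Top2a, Foxm1, Pcna and Mcm2; Rrm2 and Cdkn1a were added after their values were seen. Other lists gave up to 3 called genes. In 10x and ATAC the 6 genes with the most counts and the 4 with the widest ratio were named.

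ATAC ratios used non-overlapping windows on the main chromosomes, library totals, a pseudocount of 0.5 counts and at least 20 counts over a pair. For 10x, barcodes needed the 99th percentile of UMIs of the 4000 deepest barcodes divided by 10, at least 500 genes and at most 10% mitochondrial UMIs. Clusters came from scanpy 1.11.5 (2000 variable genes, 30 components, 15 neighbours, resolution 1). Sequences are from RefSeq, GRCm38.p6, and the promoters printed were chosen after their matches were seen.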

Additional observations from a re-analysis of the deposited data

Results flagged for a closer look

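In 2 genes both libraries of 24 months lay above both of 2 months in one population and below them in the other. Of all genes tested, libraries did not overlap between ages in 18% (higher) and 17.4% (lower) in HFSC and in 17.1% and 15.1% in EpdSC. These shares are for each population alone. The share of all genes with opposite directions in both was not counted, so the 2 genes are not read as an excess. Cdk6 had a log2 age difference of 0.46 in HFSC and -0.39 in EpdSC, a difference of 0.85 between the age effects. The test of that difference gave an unadjusted p of 0.00270 and an adjusted p of 0.523 in edgeR and did not pass. Cdk2 had -0.05 in HFSC and 0.28 in EpdSC, a difference of -0.33 (edgeR unadjusted p = 0.149, adjusted p = 1.00), which did not pass either.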

How the results depend on the processing

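With 2 libraries a group, 1 library can set a count. Leaving out each of the 8 RNA libraries in turn gave 8 to 28 called genes at 2 months in EpdSC against HFSC (26 with all libraries) and 19 to 36 at 24 months (33 with all); both age comparisons and the difference between them stayed at 0 to 0. With no filter on low counts 2 genes were called in aged against young EpdSC. Calls over all genes rose from 18 to 239 in that comparison. In aged against young HFSC they rose from 79 to 662, with 0 cycle genes called. The 2 calls therefore came in a setting that gave more calls over all genes. Without single libraries the log2 fold changes of Cdk4 and Ccnd1 at 24 months, which did not pass, ranged from -0.0097 to 0.557 and from -0.137 to 1.22; they turned negative without replicate 1 of 24-month HFSC and replicate 2 of 24-month EpdSC, and Ccnd1 passed without replicate 2 of 24-month HFSC. Of 1318 values of named genes under another setting, 61 lost their call, 54 of them without a library. With a replicate block 29 genes were called at 2 months and 39 at 24 months, against 26 and 33 without it. All genes called were 5770 and 5394 with the block, against 5600 and 5180. Over all genes tested, deviations of same-numbered libraries correlated at -0.21 to 0.17, not all above 0.1. The replicate numbers were therefore not taken as pairs, though the 13 replication genes were mostly higher in replicate 2 in all 4 groups. With the block Mcm2 passed at both ages (0.81 and 1.00). Leaving out the composition factor gave 23 called genes at 2 months and 26 at 24 months, against 26 and 33 in the main fit. All genes called changed little, from 5600 to 5638 and from 5180 to 5159. The number of cycle genes called thus depended in part on the scaling. Relative log expression factors left it at 26 and 33. The 4 ATAC medians kept their sign under all 3 alternatives, but with at least 50 counts over a pair the median of all promoters lay above that of the 36 genes at 2 months (0.13 and 0.09) and below it in aged against young HFSC (-0.80 and -0.76). The summed 10x ratio was 1.13 with at most 5% mitochondrial UMIs. The difference in thinned shares, 2.33 points, was 3.49 at 2000 UMIs, 3.48 with 1 or more UMIs and -1.26 with no thinning. The depth of aged HFSC limits the ATAC ratios, and 10x medians of 3923 and 2271 UMIs limit shares of cells.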

Other observations

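Outside cluster 11, mitotic transcripts were not evenly spread. In the sebaceous-like cluster the 23 mitotic genes stood at 678 CPM at 2 months (42 cells) and 623 at 24 months (86 cells), and in the cluster led by Cldn10 and Mfap2 at 634 (93 cells) and 247 (287 cells). In the interfollicular basal-like cluster they stood at 79.9 and 112 CPM. Ttk had its next highest level after cluster 11 (44.9 CPM) in the suprabasal-like cluster, at 14.7 CPM, where Mki67 stood at 4.89. The cluster led by Abhd2 and Slc39a1 held the highest level of Cdk6, 158 CPM, and 307 of its 327 cells came from the 24-month library.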
